A study of Rattus norvegicus with 12 samples.

Results

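Core cardiac transcription factors are the DNA-binding proteins that build and maintain the gene program of heart muscle. The genes examined were the zinc-finger factors Gata4 and Gata6, the MADS-box factors Mef2a, Mef2c, Mef2d, and Srf, the homeobox factor Nkx2-5, the T-box factors Tbx5 and Tbx20, and the basic helix-loop-helix factor Hand2. They were chosen by name, as all transcript rows of these 10 genes, and 9 of the 10 have a row among the 18752 transcripts (17301 gene names) used here, each with 1 RefSeq transcript. Mef2c was not analysed here. RNA came from adult rat ventricular myocytes (ARVMs) isolated from male Sprague Dawley rats. The ARVMs were transduced at a multiplicity of infection of 50 with Ad-h-NR4A2, an adenovirus that carries human NR4A2 under the CMV promoter, or with Ad-GFP, the control adenovirus for enhanced green fluorescent protein. RNA was collected after 48 h. Each group held 6 samples, numbered 24 to 29 in both, from independent experiments with ARVMs of different rats. Both groups carry an adenovirus, and no untransduced cells were analysed here.

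In cardiomyocytes these factors bind neighboring sites in the promoters and enhancers of contractile, conduction, and natriuretic peptide genes, and several of them bind each other. GATA4, NKX2-5, and TBX5 activate many of the same genes, MEF2 factors and SRF link the program to calcium and to the actin cytoskeleton, and HAND2 and TBX20 are best known from formation of the ventricles, where TBX20 both activates and represses genes. All are known from heart development and remain expressed in the adult heart. NR4A2 is an orphan nuclear receptor whose activity depends mainly on how much of it is made, and the comparison asks how the level of each factor differs when it is overexpressed.

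Nr4a2 itself was at 0.626 to 1.40 FPKM (a fragment rate scaled to transcript length and library size) in Ad-GFP samples and at 445 to 592 in Ad-h-NR4A2 samples, as the labels state. The transgene is human and was counted only as far as its reads align to the rat gene. Depth, recovered from the steps between low values, was 18800000 to 28000000 fragments per sample, with similar medians in both groups. The summed FPKM of 8 cardiomyocyte markers was 28327 to 35147 in Ad-GFP samples and 25480 to 29681 in Ad-h-NR4A2 samples, and 6 of the 8 fell, 1 rose, and their median log2 fold change was -0.41. The summed FPKM was far lower for 8 fibroblast markers (9.22 to 30.7 and 5.85 to 26.9), 6 smooth muscle or pericyte markers (11.7 to 24.3 and 8.78 to 21.0), and 7 endothelial markers (6.64 to 24.3 and 5.70 to 23.4), and Col1a2 was listed at 0 throughout. Of the tested ones, the fibroblast gene Col3a1 and the smooth muscle gene Myh11 fell and 0 of 7 endothelial genes passed in limma (0 at an unadjusted p below 0.05). For 5 macrophage or leukocyte markers it was 6.94 to 18.0 in Ad-GFP samples and 39.1 to 50.1 in Ad-h-NR4A2 samples. Csf1r and Cd14 rose, while Cd68 averaged 0.463 and 0.482 FPKM and Ptprc 0.0258 and 0.0218. The part of these shifts in the results below was not tested. In RNA from whole cultures, fewer cells of a type and less RNA per cell cannot be told apart.

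Of the 9 factors, 1 rose and 6 fell in Ad-h-NR4A2 samples, at an adjusted p below 0.05 (limma on log2(FPKM + 0.1), Benjamini-Hochberg adjustment over the 10950 genes tested). Tbx20 doubled, with a ratio of group mean FPKM of 2.02. Hand2, Tbx5, and Gata4 fell by the most, to 0.522, 0.544, and 0.594 of the control mean. Gata6, Mef2d, and Mef2a fell less, to 0.764, 0.762, and 0.779. Nkx2-5 and Srf did not pass the test. For comparison, 40.9% of all tested genes passed, 19.3% up and 21.7% down, so that 7 of 9 factors is to be read against a wide response. A ratio of at least 1.5 in either direction was reached as well by 4 of the 9 factors (1 up, 3 down) and by 15.2% of tested genes (7.94% up, 7.24% down). The groups did not overlap for 6 factors, 5 of them lower, beside 21.5% of tested genes (10.9% higher, 10.6% lower). All 9 genes were above 0 in every sample, and none was lost to a filter. The median log2 fold change was -0.39 over the 9 factors and -0.02 over all genes. These counts are from the unpaired fit. In a fit with same-numbered samples as pairs, 7 of the 9 factors passed as well, beside 59.4% of all tested genes.

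**Figure D1:**
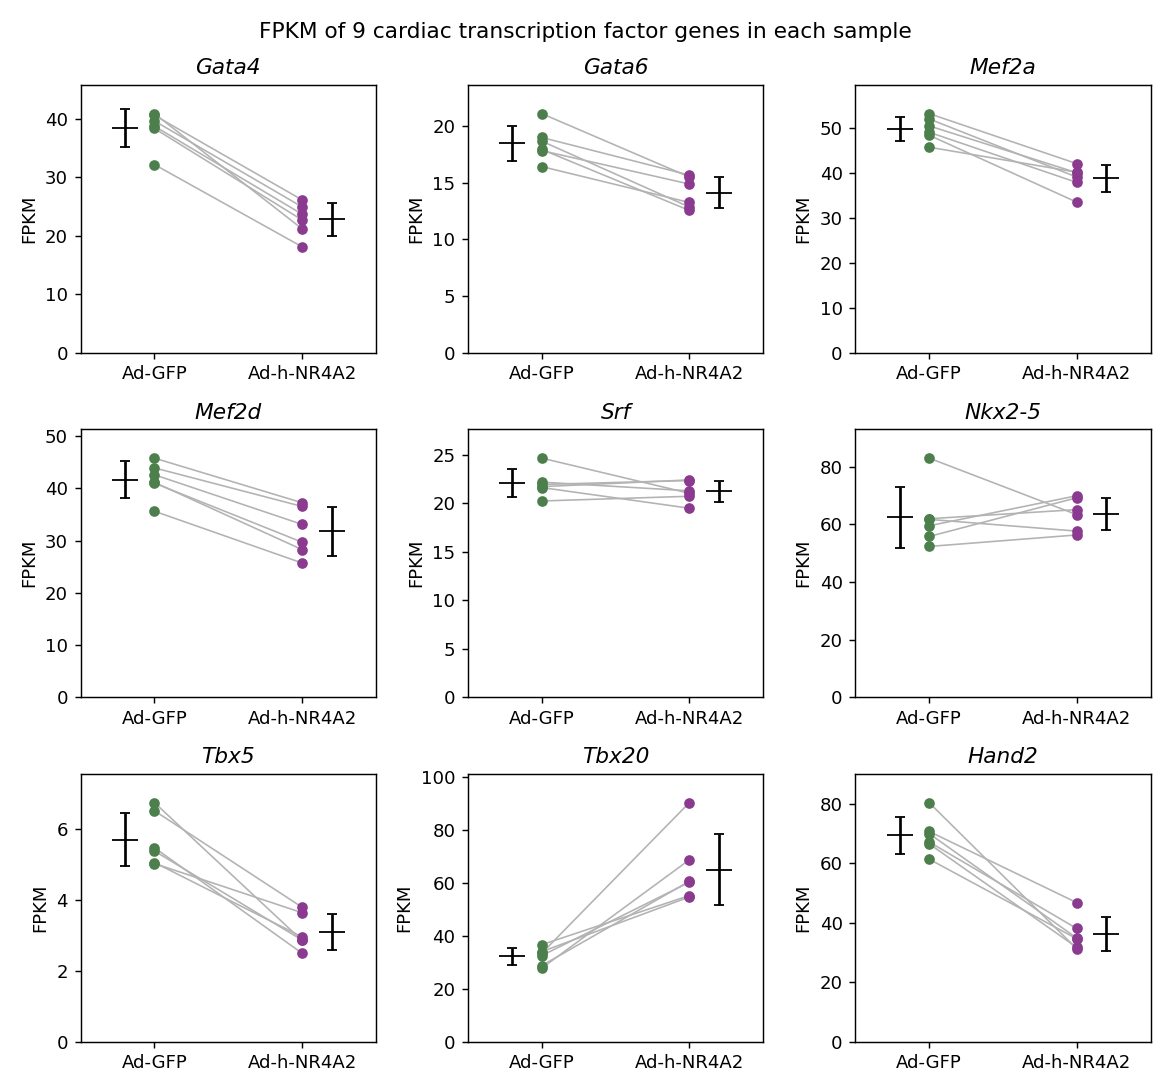
FPKM (y axes, from 0) of each of the 9 genes in the 6 Ad-GFP samples (green) and the 6 Ad-h-NR4A2 samples (purple). Grey lines join same-numbered samples, and the black bars beside the points are the mean and SD. Tbx20 lies higher in every Ad-h-NR4A2 sample, 6 genes lie lower in all 6 pairs, and the Nkx2-5 and Srf values overlap.

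The T-box factors moved in opposite directions. TBX20 and TBX5 share a DNA-binding domain and recognize closely related sites. Tbx20 (chr8:25894559-25934681, Rn5) was at 27.8 FPKM in the lowest, 32.9 at the median, and 36.6 in the highest Ad-GFP sample. In Ad-h-NR4A2 samples the lowest value was 54.6, the median 60.4, and the highest, that of sample 24, 90.3. Every Ad-h-NR4A2 value thus lay above every Ad-GFP value, with a gap of 18.0 FPKM between the groups. The mean was 32.2 ± 3.35 (SD, n = 6) with Ad-GFP and rose to 64.9 ± 13.4 (SD, n = 6) FPKM, a difference of 1.00 in log2 units with an SE of 0.11 (limma, adjusted p = 1.23e-05). It rested on about 833 to 1474 fragments in control samples and 1865 to 3016 with Ad-h-NR4A2. Without pair 24 the log2 fold change was 0.91.

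Tbx5 (chr12:43949166-43996736, Rn5), which activates atrial natriuretic peptide and conduction genes together with NKX2-5 and GATA4, was the least abundant factor. Its Ad-GFP values ran from 5.02 to 6.73 FPKM with a median of 5.41, and its Ad-h-NR4A2 values from 2.49 to 3.79 with a median of 2.91. The groups did not overlap, at about 144 to 244 fragments in Ad-GFP samples and 82 to 126 in Ad-h-NR4A2 samples. The mean was 5.69 ± 0.744 (SD, n = 6) with Ad-GFP and fell to 3.09 ± 0.503 (SD, n = 6) FPKM, a difference of -0.86 in log2 units with an SE of 0.12 (limma, adjusted p = 5.23e-05). As a result Tbx20 FPKM was 5.14 to 6.48 times Tbx5 FPKM in Ad-GFP samples and 16.6 to 23.8 times in Ad-h-NR4A2 samples. This ratio was formed after both changes were known and is a description only.

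Because these 2 genes moved apart, the 250 bases upstream of their annotated starts are shown, from the RefSeq promoter table of build GRCr8, 5′ to 3′ on the strand of the gene. They lie at chr8:31534010-31534259 and chr12:42395360-42395609, both on the minus strand. Capitals would mark the motifs searched, and neither window holds one.
Tbx20: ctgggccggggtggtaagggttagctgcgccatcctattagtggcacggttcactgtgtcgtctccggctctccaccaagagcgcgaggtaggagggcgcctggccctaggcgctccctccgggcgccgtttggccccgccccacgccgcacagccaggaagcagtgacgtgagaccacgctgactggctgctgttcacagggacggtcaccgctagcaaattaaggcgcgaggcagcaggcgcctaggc
Tbx5: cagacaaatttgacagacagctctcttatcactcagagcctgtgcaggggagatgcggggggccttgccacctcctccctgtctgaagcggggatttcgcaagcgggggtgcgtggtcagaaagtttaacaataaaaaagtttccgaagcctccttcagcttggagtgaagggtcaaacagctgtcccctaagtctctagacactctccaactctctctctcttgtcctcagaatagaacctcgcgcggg
The search covered AAAGGTCA, the site that an NR4A receptor binds as a monomer (NBRE), the CArG box of SRF, and the MEF2 site, on both strands and with overlaps allowed. Promoters were found for 8 of the 10 genes, all but Gata4 and Mef2c. The window searched had 300 bases, of which 50 lie downstream of the start. The NBRE was in none of the 8 windows and in 1.43% of all 33469 promoters of this length. A missing match says only that these letters are not in this window.

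The GATA factors both fell, Gata4 more than Gata6. They recognize the same sequence and overlap in function, and GATA4 drives natriuretic peptide and contractile genes and takes part in hypertrophic growth. Gata4 (chr15:50151499-50197708, Rn5) ran from 32.2 to 40.9 FPKM with a median of 39.2 in Ad-GFP samples. In Ad-h-NR4A2 samples it ran from 18.1 to 26.1 with a median of 23.2. Sample 25 was the lowest of both groups, and the groups were 6.04 FPKM apart. The mean fell from 38.4 ± 3.21 (SD, n = 6) to 22.8 ± 2.87 (SD, n = 6), a difference of -0.76 in log2 units with an SE of 0.09 (limma, adjusted p = 1.23e-05). Fragments numbered about 1903 to 3608 and 1533 to 1927.

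Gata6 (chr18:2435450-2466715, Rn5) ran from 16.4 to 21.1 FPKM with a median of 18.3 in Ad-GFP samples. It ran from 12.5 to 15.7 with a median of 14.1 in Ad-h-NR4A2 samples. The groups did not overlap, but only 0.753 FPKM separated them. In log2 units the difference was -0.39 with an SE of 0.07 (limma, adjusted p = 9.68e-04), under the 1.5-fold limit. Gata4 made up 67.5 ± 2.49% (SD, n = 6) of the summed FPKM of both genes with Ad-GFP. With Ad-h-NR4A2 it made up 61.7 ± 1.99% (SD, n = 6). Its share was lower in 6 of 6 pairs, a mean difference of -5.78 percentage points (two-sided exact permutation p = 0.00216, adjusted 0.00433 over 2 shares). In this unpaired test Gata4 lost more than its paralog beyond the spread between samples. A paired exact permutation test gave p = 0.0313, the smallest that 6 pairs allow, without adjustment over the 2 shares. A further GATA gene, Gata5, was named after its values were seen. It fell from 13.7 to 7.13 FPKM, a difference of -0.94 in log2 units.

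**Figure D2:**
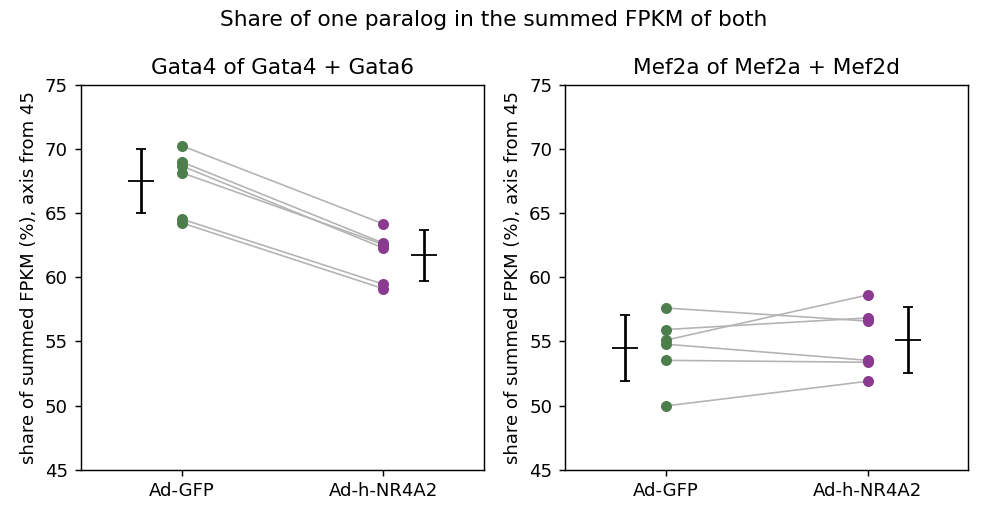
Share of Gata4 in the summed FPKM of Gata4 and Gata6 (left) and of Mef2a in that of Mef2a and Mef2d (right), in percent on axes from 45 to 75, for 6 Ad-GFP (green) and 6 Ad-h-NR4A2 (purple) samples joined by number, with mean and SD in black. The Gata4 share is lower in all 6 pairs (67.5% to 61.7% on average), and the Mef2a share is lower in 3 of 6.

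Both MEF2 factors fell. MEF2A is a main MEF2 factor of adult myocardium, and MEF2D relays stress and calcium signals to growth genes. Mef2a (chr1:129276146-129406965, Rn5) ran from 45.8 to 53.2 FPKM with a median of 49.8 in Ad-GFP samples and from 33.5 to 42.1 with a median of 39.6 in Ad-h-NR4A2 samples. The groups were 3.65 FPKM apart. Its mean was 49.8 ± 2.69 (SD, n = 6) and fell to 38.8 ± 2.94 (SD, n = 6), a difference of -0.36 in log2 units with an SE of 0.06 (limma, adjusted p = 1.83e-04). It rested on about 2605 to 4315 fragments per sample over both groups.

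Mef2d (chr2:206915181-206941044, Rn5) ran from 35.6 to 45.8 FPKM with a median of 41.9 in Ad-GFP samples and from 25.7 to 37.3 with a median of 31.4 in Ad-h-NR4A2 samples. It was the only gene that fell with overlapping groups, since Ad-h-NR4A2 samples 24 and 28 exceeded Ad-GFP sample 25. Within pairs it was lower in 6 of 6, by 0.26 to 0.54 on the log2 scale. In log2 units the difference was -0.40 with an SE of 0.09 (limma, adjusted p = 0.00339). The Mef2a share of the summed MEF2 FPKM was 54.5 ± 2.59% (SD, n = 6) with Ad-GFP. It was 55.1 ± 2.58% (SD, n = 6) with Ad-h-NR4A2, and no difference was found (two-sided exact permutation p = 0.673, also after adjustment over 2 shares). Mef2c is not part of this sum.

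Hand2, a factor needed for growth of the ventricles, had the largest relative fall of the 9 genes. Its Ad-GFP values ran from 61.4 to 80.4 FPKM with a median of 68.6, and its Ad-h-NR4A2 values from 31.3 to 46.8 with a median of 34.7. The groups were 14.6 FPKM apart, and sample 24 was the highest with Ad-h-NR4A2. The mean fell from 69.4 ± 6.33 (SD, n = 6) to 36.2 ± 5.73 (SD, n = 6), a difference of -0.94 in log2 units with an SE of 0.09 (limma, adjusted p = 3.15e-06). Its listed transcript has only 343 nucleotides, spread over chr16:36107398-36174764 (Rn5), and rests on about 224 to 369 and 124 to 192 fragments. FPKM of so short a transcript depends strongly on the fragment length assumed, so that its level relative to the other genes is less certain than its change.

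Nkx2-5 and Srf, which stand at the head of the cardiac and the muscle-actin programs, did not pass the test. Nkx2-5 (chr10:16524991-16527760, Rn5) ran from 52.3 to 83.0 FPKM with a median of 60.6 in Ad-GFP samples and from 56.3 to 69.9 with a median of 64.2 in Ad-h-NR4A2 samples. The values overlapped, and Ad-GFP sample 24 lay far above the other 5. In log2 units the difference was 0.04 with an SE of 0.10 (limma, adjusted p = 0.779), with a 95% interval of -0.17 to 0.25, or ratios of 0.889 to 1.19. Without pair 24 it was 0.12 (adjusted p = 0.206, limma). Relative to Gata4, Nkx2-5 was at 1.36 to 2.04 times its FPKM in Ad-GFP samples and at 2.42 to 3.59 times in Ad-h-NR4A2 samples, a description formed after the values were seen.

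Srf (chr9:15642594-15652177, Rn5) had the smallest SE of the 9 genes. It ran from 20.2 to 24.6 FPKM with a median of 21.8 in Ad-GFP samples and from 19.5 to 22.4 with a median of 21.1 in Ad-h-NR4A2 samples. It was lower in 3 pairs and higher in 3. In log2 units the difference was -0.06 with an SE of 0.05 (limma, adjusted p = 0.442), and the 95% interval reached from a ratio of 0.889 to one of 1.04. A change of 1.5-fold lies outside the interval of both genes, whereas a small change cannot be told from none.

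**Figure D3:**
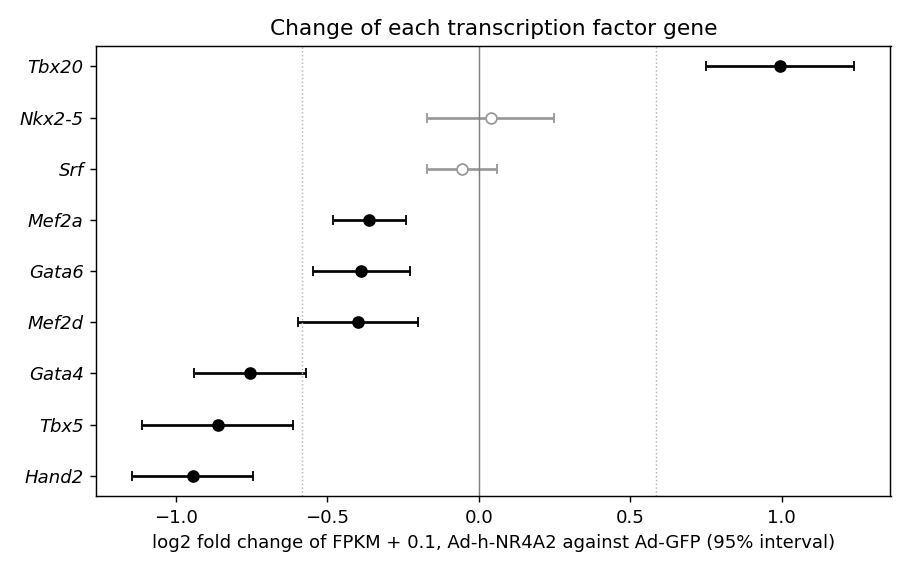
Log2 fold change of FPKM + 0.1 (x axis) of Ad-h-NR4A2 against Ad-GFP for each of the 9 genes (y axis), with 95% intervals from limma. Black points passed the test and open grey points did not; dotted lines mark a 1.5-fold change. Tbx20 stands alone at the right (1.00), and Hand2, Tbx5, and Gata4 lie beyond -0.75.

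Of the 8 windows searched, 1 held a CArG box and 1 a MEF2 site, and these are shown because each lies upstream of the gene of the factor that binds it. In the Srf window (chr9:21923826-21924075, GRCr8, plus strand) a CArG box starts 81 bases and another 61 bases before the annotated start. In the Mef2a window (chr1:130392163-130392412, GRCr8, minus strand) a MEF2 site starts 40 bases before it. Capitals mark these matches.
Srf: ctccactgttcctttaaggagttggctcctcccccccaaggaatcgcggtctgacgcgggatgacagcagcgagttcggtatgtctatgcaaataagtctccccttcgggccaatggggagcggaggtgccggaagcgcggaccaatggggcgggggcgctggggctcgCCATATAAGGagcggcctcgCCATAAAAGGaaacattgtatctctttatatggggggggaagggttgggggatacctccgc
Mef2a: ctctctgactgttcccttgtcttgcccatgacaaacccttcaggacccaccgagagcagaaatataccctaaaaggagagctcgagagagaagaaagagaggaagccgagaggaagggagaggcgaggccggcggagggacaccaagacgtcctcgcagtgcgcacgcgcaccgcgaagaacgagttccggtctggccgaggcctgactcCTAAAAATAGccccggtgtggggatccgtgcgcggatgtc
A CArG box was in 1.64% and a MEF2 site in 0.565% of all promoters. Beside these windows, Srf mRNA did not pass the test and Mef2a mRNA fell.

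On the FPKM scale, which is per length, the factors were ordered Hand2, Nkx2-5, Mef2a, Mef2d, Gata4, Tbx20, Srf, Gata6, and Tbx5 in Ad-GFP samples. All but Tbx5 were above 60% of tested genes, and Tbx5 was above 36.7%. The ranges of neighbors overlapped at 6 of the 8 steps and were separate between Tbx20 and Srf and between Gata6 and Tbx5. The order held in all 6 samples at 5 steps (exact sign-flip permutation p = 0.0313, the smallest that 6 samples allow, adjusted 0.05 over 8 steps, with none below 0.05). For Hand2 over Nkx2-5, Mef2a over Mef2d, and Srf over Gata6 it held in 5 samples of 6. The order tested was itself taken from the means of these same samples, so that agreement with it is partly built in. The order is therefore a description, and a p that misses the threshold here does not show that neighbors were alike. With Ad-h-NR4A2, Hand2 moved from the highest to the fourth mean. Its places are less certain in both groups, since its listed transcript has only 343 nucleotides. Tbx20 moved from the sixth to the highest mean, and this first place rests on sample 24. Tbx20 was above Nkx2-5 in that sample only, its median was 60.4 FPKM beside 64.2, and without sample 24 its mean was 59.9 beside 63.6.

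**Figure D4:**
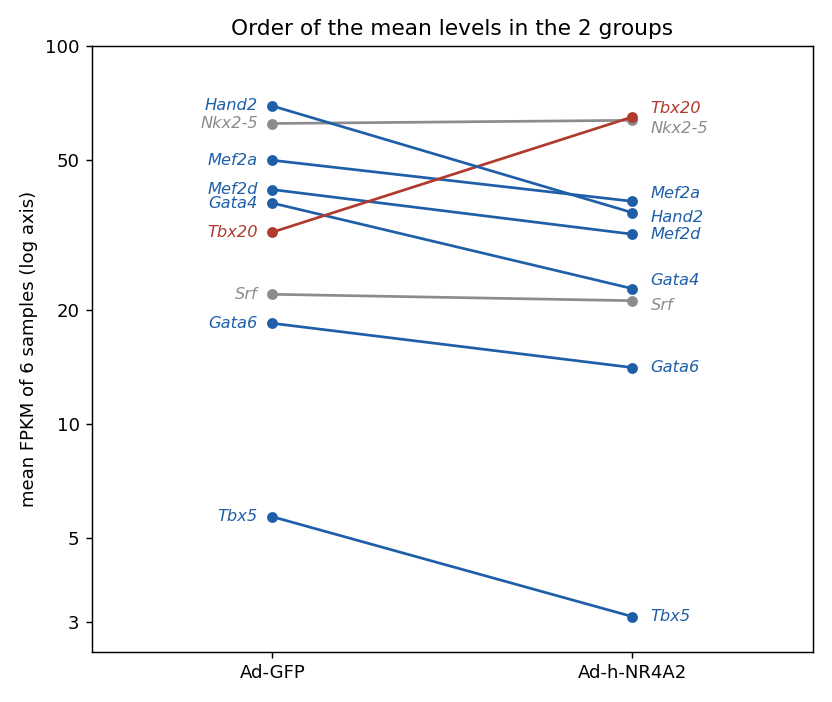
Mean FPKM of 6 samples per group on a log axis, with a line for each gene from Ad-GFP to Ad-h-NR4A2. Red is the gene that rose, blue are the 6 that fell, and grey are the 2 that did not pass the test. The Tbx20 line runs from 32.2 to 64.9 FPKM, a mean that sample 24 raises above that of Nkx2-5. It crosses the lines of Gata4, Mef2d, Mef2a, Hand2, and Nkx2-5. The height of the Hand2 line is less certain, since its listed transcript is short.

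Samples that were high for one factor within their group tended to be high for others. Over the deviations of 12 samples from their group means, 31 of the 36 pairs of factors had a positive Pearson's r, with a median of 0.44. The highest was 0.89, between Tbx20 and Hand2, although these genes moved in opposite directions between groups. Ad-h-NR4A2 sample 24 was the highest of its group for both, at 90.3 FPKM (next 68.7) and 46.8 FPKM (next 38.1). Gata4 and Mef2d had an r of 0.87. The 5 negative values each involved Srf or Nkx2-5, down to -0.30 for Hand2 and Srf. The factors share each library, its scaling, and pairs of samples share a number, and the values are descriptions. The share of positive values among pairs of other genes was not computed, so the count cannot be read as particular to these factors.

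The genes most like each changed factor over the 12 samples, by Pearson's r of log2(FPKM + 0.1) among genes of at least 1 FPKM, all changed between groups as well, and r includes that difference. They were Rere and Hk1 for Gata4 (r = 0.99 and 0.98), Cdk14 and Cbx6 for Gata6 (0.98 and 0.98), Rbfox1 and Tmem47 for Mef2a (0.98 and 0.97), and Sertad3 and Dvl3 for Mef2d (0.98 and 0.98). For Tbx5 they were Smtn and Mul1 (0.98 and 0.97), and for Hand2 Naa40 and Slc29a1 (0.99 and 0.99). For Tbx20 they were Smpx, a small muscle protein, and the chemokine Cx3cl1 (0.97 and 0.96).

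The factors work with cofactors and are opposed by antagonists. The list of cofactors and antagonists held 26 genes, 21 of them tested. Of these, 4 rose and 11 fell (71.4%, beside 40.9% of all genes), with a median log2 fold change of -0.25. Csrp3, a LIM protein that binds GATA4 and SRF, rose from 904 ± 163 to 2765 ± 423 FPKM (SD, n = 6 each; 1.62 in log2 units). Smyd1, a muscle methyltransferase and MEF2 target, rose from 102 ± 11.1 to 311 ± 24.6 FPKM (log2 fold change 1.61), and Ankrd1, a nuclear repressor partner, rose by 0.81. Myocardin (Myocd), the coactivator of SRF, fell from 2.77 ± 0.471 to 1.56 ± 0.206 FPKM (log2 fold change -0.78). Hopx, which antagonizes SRF, had a log2 fold change of -0.75, and Tead1, a cardiac factor that binds beside SRF and MEF2 sites, one of -0.70. Among other genes of the list that act with SRF, Elk1 and Elk4 fell, with log2 fold changes of -0.28 and -0.53. Fhl2 (-0.13) and Elk3 (0.39) did not pass the test. Of the genes named here as acting with or against SRF, Csrp3 rose, while Myocd, Hopx, Tead1, Elk1, and Elk4 fell.

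Among 30 other cardiac or related transcription factor genes, 21 were tested, and 5 rose and 7 fell (57.1%, beside 40.9% of all genes). Their median log2 fold change was 0.06. With same-numbered samples as a replicate block, 57.1% of them passed, beside 59.4% of all genes in that fit. The homeobox gene Meis2 rose from 22.2 ± 2.37 to 42.6 ± 4.62 FPKM (0.94 in log2 units). The ventricular homeobox gene Irx4 fell from 10.0 ± 3.16 to 2.97 ± 1.19 FPKM (-1.76 in log2 units). Klf15, a repressor of hypertrophic growth, and the estrogen-related receptor Esrrg had log2 fold changes of -1.05 and -0.97. Other T-box and HAND genes were scarce, with Tbx2, Tbx3, and Tbx18 at group means of 0.235 to 0.611 FPKM and Hand1 at 0.112 and 0.0620, and none of the 3 T-box genes passed the test. The MEF2 relative Mef2b rose, from a mean of 0.140 to 0.278 FPKM (adjusted p = 0.0205 from limma). Its values overlapped, at 0.0924 to 0.216 FPKM with Ad-GFP and 0.150 to 0.402 with Ad-h-NR4A2. They lie near the pseudocount of 0.1, so that this rise is uncertain.

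Genes that some of the factors are known to activate were counted in 3 lists, which share some members. No list was formed for targets of TBX20 or HAND2. Of 29 tested targets of GATA factors, NKX2-5, and TBX5, 2 rose and 18 fell (69.0%, beside 40.9% of all genes), with a median log2 fold change of -0.48. B-type natriuretic peptide (Nppb) fell from 300.0 ± 93.0 to 109 ± 23.4 FPKM (log2 fold change -1.43), the adenosine receptor Adora1 from 7.88 ± 1.00 to 3.25 ± 0.489 (-1.26), and Irx4, already given, belongs here too. Slc8a1, the sodium/calcium exchanger, rose from 45.4 ± 5.63 to 100.3 ± 11.4 FPKM for the most abundant of its 9 transcripts (1.14). Atrial natriuretic peptide (Nppa), the best known target, was at 184 ± 131 and 198 ± 131 FPKM (SD, n = 6 each) and did not pass the test. Of the 8 cardiomyocyte markers, 7 are also in this list.

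Of 24 tested MEF2 targets, 8 rose and 8 fell (66.7%, beside 40.9% of all genes), and their median log2 fold change was -0.09. The rises were led by the muscle enolase Eno3, which went from 120 ± 37.0 to 1334 ± 281 FPKM (log2 fold change 3.50), followed by Smyd1 and Ankrd1. The largest falls were those of Nr4a1, a relative of NR4A2 (-0.93), the costameric protein Xirp2 (-0.71), and the calcium-binding protein Hrc (-0.63). MEF2 targets thus went both ways while Mef2a and Mef2d fell.

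Of 27 tested SRF targets, 2 rose and 5 fell (25.9%, beside 40.9% of all genes), with a median log2 fold change of -0.09. In a fit with the pairs as a replicate block, 6 rose and 9 fell (55.6%), beside 59.4% of all genes in that fit. Fhl1, listed with 5 transcripts, rose from 96.2 ± 36.1 to 1587 ± 260 FPKM (log2 fold change 4.10), and Cyr61, a secreted matrix protein, from 8.64 ± 1.54 to 135 ± 18.5 FPKM (3.95). The 5 that fell were Myh6 (-0.56), Egr2 (-0.50, at means of 0.150 and 0.0768 FPKM), Zyx (-0.40), Des (-0.29), and Vcl (-0.17). Acta1, Actc1, Fos, and Egr1 had log2 fold changes of -0.10, -0.09, -0.09, and -0.09 and did not pass the test. Known SRF targets were thus found among the rises, among the falls, and among the genes not called.

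**Figure D5:**
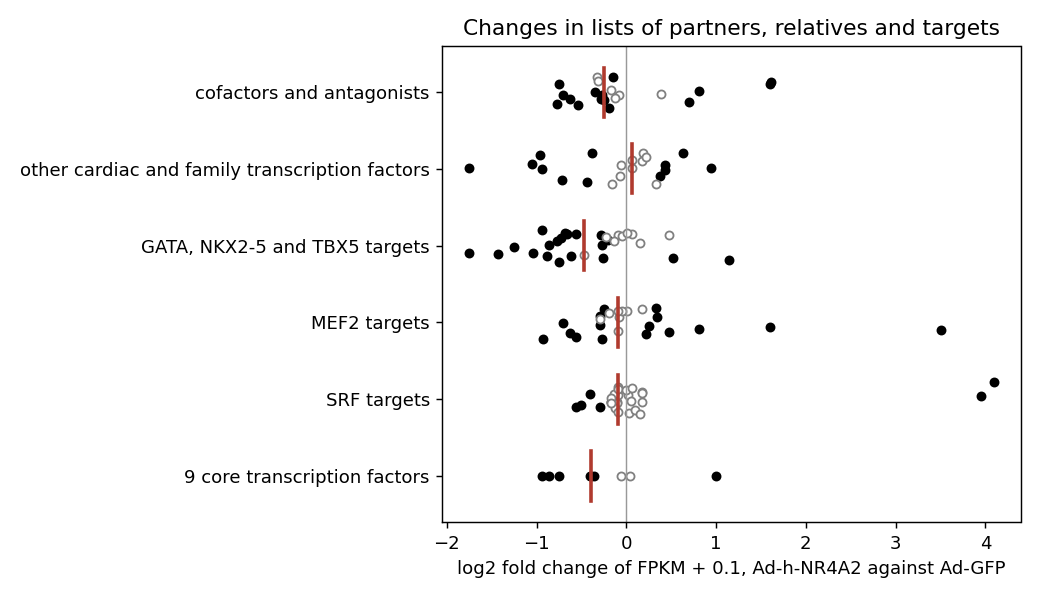
Log2 fold change of FPKM + 0.1 (x axis) for the tested genes of 5 lists and the 9 core factors (y axis, points spread vertically within a list to be visible). Black points passed the test, open points did not, and the red bar is the median of the list. The median is lowest for the GATA, NKX2-5, and TBX5 targets (-0.48) and close to 0 for the SRF and MEF2 targets (both -0.09).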

How the data were processed

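Stranded mRNA libraries of the 12 samples were pooled by the authors for 1 sequencing run, mapped with STAR to the Rn5 build, and used to quantify RefSeq transcripts with Cufflinks (tools per the submitters' processing notes and the paper's methods). The FPKM values deposited by the authors were used as they are. Confidence limits in the files equal the value and were not used. Locus starts count from 0 in the files and were raised by 1.

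Genes above 0 in all 12 samples (10950) each entered with their most abundant transcript. Log2(FPKM + 0.1) was compared with limma 3.58.1 (eBayes with trend, R 4.3.3), two-sided, unpaired as in the paper's statistics, with Benjamini-Hochberg adjustment. A gene rose or fell at an adjusted p below 0.05; the study's fold limit of 1.5 is given separately. The pseudocount understates changes of low genes. Shares and orders used exact permutation tests. The comparison was also run on simulated data with independent samples and no pair effect, which does not show that the calls hold in these data. Python 3.11.15 was used with SciPy 1.17.1, NumPy 2.4.6, Matplotlib 3.10.9, and pandas 2.3.3.

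The members and lists were chosen with earlier results of these data known. All members are named. List genes are named by rule, as up to 3 rises and 3 falls with an adjusted p below 0.05, a ratio of 1.5, and a mean FPKM of at least 1. Other list genes were named after their values were seen. The planned MEF2 shares were formed without Mef2c. Depth and fragment numbers were recovered from transcripts of at least 800 nucleotides. Of the values of up to 6 fragments, 99.2% to 99.9% per sample were whole within 0.1. Fragment numbers are approximate and cover counting error only. Same-numbered samples deviated together from their group means (r = 0.35 to 0.62 in the 6 pairs, across genes, which are not independent replicates). What a number marks is not stated in the labels. Alternatives were other pseudocounts, filters, and scalings, no trend, summed transcripts, a replicate block, and each pair left out.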

Additional observations from a re-analysis of the deposited data

Results flagged for a closer look

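In 22 groups of 6 values (9 genes and 2 shares in each of 2 groups), a highest or lowest sample lay far from the others in 2, where chance gives about 1 in 20. Nkx2-5 in Ad-GFP sample 24 was at 83.0 FPKM, and the next highest value was 61.9. The gap was 0.686 of the whole range, above the 95% critical value of Dixon's test for 6 samples. Gata4 in Ad-GFP sample 25 was at 32.2 FPKM, and the next lowest value was 38.4, a gap of 0.709 of the range. The Ad-h-NR4A2 sample of the same number was also the lowest for Gata4. The reason for these values was not tested. Without pair 25 the log2 fold change of Gata4 was -0.74, and without pair 24 that of Nkx2-5 was 0.12.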

How the results depend on the processing

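The 7 changed factors kept their direction and passed the test under all 15 alternatives, with other pseudocounts, filters, scalings, no trend, summed transcripts, the replicate block, and each pair left out. The filters, no trend, summed transcripts, and the block cannot alter the log2 fold change of these factors. Only their adjusted p could move there. Over all 15 alternatives, the log2 fold change was 0.91 to 1.08 for Tbx20 and -1.01 to -0.86 for Hand2. It was -0.94 to -0.71 for Tbx5 and -0.78 to -0.72 for Gata4. The highest adjusted p of any of the 7 was 0.0168, for Mef2d without pair 29 (limma). Srf stayed negative (-0.08 to -0.02) and Nkx2-5 stayed within -0.02 to 0.12, and neither passed. Without pair 28 Nkx2-5 was negative (-0.015), and the cause was not tested. The replicate block changed no call of a factor. It moved the called SRF targets from 7 to 15, an alternative chosen after seeing the data, and the cause was not tested. In that fit 90.5% of the cofactors and antagonists passed, beside 59.4% of all genes. For the GATA, NKX2-5, and TBX5 targets it was 79.3%, and for the MEF2 targets 79.2%. Over all genes, 4484 passed in the main comparison, 6509 with the block, and 3660 to 4398 with a pair left out. The counts of called factors were 7 to 7 with a pair left out. The difference in the Gata4 share was -5.92 to -5.65 percentage points with a pair left out (exact permutation p = 0.00794, the smallest that 5 against 5 allow), and that in the Mef2a share was 0.0802 to 1.04. The paired exact permutation test gave p = 0.0313 for the Gata4 share, the smallest that 6 pairs allow, without adjustment over the 2 shares. Scalings moved the median of all genes by less than 0.1.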
